A study of Mus musculus with 4 samples.

Results

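Respiratory complexes III, IV and V were followed here through 52 gene rows of the 22620 in the deposited gene tables. A gene counted as a member where its symbol began with Uqcr, Cox4 to Cox8, Atp5, mt-Co or mt-Atp, or was mt-Cytb or Cyc1. The rule uses symbols and no measured value, but it was set with earlier results of these data known. The mitochondrial genome encodes 6 of them: mt-Cytb of complex III, mt-Co1, mt-Co2 and mt-Co3 of complex IV, and mt-Atp6 and mt-Atp8 of complex V. The other 46 are nuclear, with 9 in complex III, 19 in complex IV and 18 in complex V. The symbol Atp5o stands in 2 rows, 1 of them with almost no reads, and Cox5b-ps is named as a pseudogene.

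Complex III (ubiquinol-cytochrome c reductase) passes electrons from ubiquinol to cytochrome c, complex IV (cytochrome c oxidase) passes them on to oxygen, and both move protons across the inner mitochondrial membrane. Complex V (ATP synthase) lets the protons flow back and makes ATP. Each complex joins core subunits translated inside the mitochondrion with nuclear subunits imported from the cytosol, so that each is built from both genomes. Several nuclear subunits of complex IV also come in paired versions, one found in most tissues and another known from muscle, lung or testis.

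The libraries hold RNA of single immune cells from tumours of MC38, a mouse colon adenocarcinoma line, grown in hosts that were wild type (WT) or carried a knockout (KO), and each genotype has 2 libraries. Tumours were digested with enzymes, CD45-positive cells were taken with magnetic beads, and the labels' protocols give a 10x Genomics kit that reads the 3' ends of cDNA. Strain, age and mice per library are not stated in the labels. A p-value here covers only how libraries of a genotype vary, and that spread may be technical.

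The libraries WT 1, WT 2, KO 1 and KO 2 held 9239, 9369, 18324 and 10344 barcodes and between 94213071 and 130466357 unique molecular identifiers (UMIs, one per captured RNA molecule). The median depth of the cells kept was 9905.5 and 12133 UMIs in WT and 6052 and 8308 in KO. Any 2 libraries shared 22 to 51 barcodes, and 311 to 710 cells a library met a gate without a UMI of Ptprc, the gene of CD45, and were left out. Cells were sorted by marker genes into 9 immune types, each called "gated" here, and values are CPM, that is counts scaled to a total of 1000000 UMIs in that library's gated cells. Macrophage-gated cells numbered 4303, 5081, 7176 and 3981, and monocyte-, conventional dendritic cell (cDC)-, neutrophil-, CD8 T- and CD4 T-gated cells reached 20 in every library and were tested too. Natural killer (NK)-, B- and plasmacytoid dendritic cell (pDC)-gated cells did not, and are described without a test.

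The mitochondrially encoded members differ from the nuclear ones in how they are laid out, and this bears on their counts. In GRCm38 (mm10) coordinates of the GENCODE annotation, mt-Atp8 spans chrM:7766-7969 and mt-Atp6 chrM:7927-8607, both on the forward strand. They share 43 bases, which are 21.1% of mt-Atp8. The shared stretch is shown with the start codon of mt-Atp6 in capitals, because a UMI that falls there fits both genes.
mt-Atp8 and mt-Atp6 overlap, chrM:7927-7969: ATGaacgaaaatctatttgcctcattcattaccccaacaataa
Counts of mt-Atp8 are therefore uncertain, and they were low in every library (30.0 to 50.4 CPM in macrophage-gated cells). Overlaps were searched only with protein-coding, long intergenic RNA, antisense and processed-transcript genes, so transfer RNA genes and pseudogenes are not covered. Of the 52 members, 13 overlap such a gene on the other strand and 6 one on the same strand. How the counting treated such reads is not stated in the labels or headers.

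Among the nuclear members, Cox6b2 carried the 1 genotype difference in macrophages that passed the test below, and its partner Cox6b1 did not pass. Both encode subunit VIb, which faces the intermembrane space on complex IV, Cox6b1 in most tissues and Cox6b2 as the version known from testis. Cox6b2 lies at chr7:4751792-4753094 and Cox6b1 at chr7:30616861-30626151, both on the reverse strand, and no other gene of the kinds searched overlaps Cox6b2. Their promoters, from 250 bases before to 50 after the start in the RefSeq table for GRCm38.p6, are printed 5′ to 3′ along the gene's strand. Capitals mark a match to the ETS motif CCGGAAG or its complement.
Cox6b2 promoter, chr7:4753045-4753344: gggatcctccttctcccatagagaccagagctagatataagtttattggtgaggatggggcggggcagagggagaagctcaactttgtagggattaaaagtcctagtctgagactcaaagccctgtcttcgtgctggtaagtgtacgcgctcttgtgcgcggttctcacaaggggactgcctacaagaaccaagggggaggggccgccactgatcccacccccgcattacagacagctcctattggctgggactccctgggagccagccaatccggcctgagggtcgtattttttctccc
Cox6b1 promoter, chr7:30626065-30626364: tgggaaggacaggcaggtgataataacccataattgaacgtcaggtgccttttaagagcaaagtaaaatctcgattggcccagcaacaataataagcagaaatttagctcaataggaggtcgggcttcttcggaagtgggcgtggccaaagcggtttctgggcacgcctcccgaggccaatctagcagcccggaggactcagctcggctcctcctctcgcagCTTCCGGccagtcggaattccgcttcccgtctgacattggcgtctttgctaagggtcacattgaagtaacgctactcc
The Cox6b1 window held 1 ETS match, and the Cox6b2 window held no match to ETS, to the NRF1 motif (GCGCA followed directly by its reverse complement) or to the YY1 motif AAGATGGCG on either strand. Promoters of 33 members were found in that table by symbol. ETS matches stood in 11 of them (33.3%, against 9.93% of all 27025 promoters of that length), among them Cox8a, Uqcrh, Uqcr11, Atp5e, Atp5h and Atp5l. NRF1 matches stood in 4 (12.1% against 1.07%): Uqcrc1, Cox6a1, Atp5g2 and Atp5k. YY1 matches stood in 2 (6.06% against 1.64%), Atp5j and Atp5j2. A match describes letters in a window and is not a binding site.

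Macrophages were compared first, since the series title names them and they were the most numerous cells. Of the 48 members tested in macrophage-gated cells, Cox6b2 was lower in KO and none was higher (edgeR's quasi-likelihood test, Benjamini-Hochberg adjusted p under 0.05 over all genes). Of all 12313 genes tested, 9.45% passed, 697 higher (5.66%) and 466 lower (3.78%) in KO. Below an unadjusted p of 0.05 edgeR had 3 members higher and 1 lower, and DESeq2 called 3 higher, mt-Cytb, mt-Co2 and Cox7a2, and 1 lower. The 4 members not tested were Cox7b2, Cox8b, Cox8c and the nearly empty row of Atp5o. Fold changes below are log2 values of KO over WT after TMM scaling, and the median of all genes was then -0.01. With total UMIs in place of TMM that median was -0.14, a shift that all values share.

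Cox6b2 gave 5.55 and 5.36 CPM in WT 1 and WT 2 and 1.90 and 1.58 CPM in KO 1 and KO 2, from 306, 391, 148 and 99 UMIs. Both KO libraries lay below both WT libraries. It fell by 1.52 ± 0.17 on the log2 scale (SE, n = 2 libraries each; edgeR adjusted p = 0.0037), which is 0.35 of the WT level. The change stayed between -1.66 and -1.23 and passed in 17 of 17 other settings, with an adjusted p of up to 0.046 in the strictest gate. It was -1.23 with cells holding a cycling marker left out and -1.36 with cells holding Chil3 or Ear2 left out. Those cells differed between libraries: the 5 cycling markers summed to 507 to 542 CPM in WT and 318 to 423 in KO, with all 5 lower in both KO libraries, and Chil3 or Ear2 marked 27.7%, 13.5%, 6.38% and 16.6% of macrophage-gated cells. Cox6b1 stood at 540, 515, 532 and 519 CPM, with a log2 change of 0.12 and a 95% interval of -0.10 to 0.34.

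**Figure D1:**
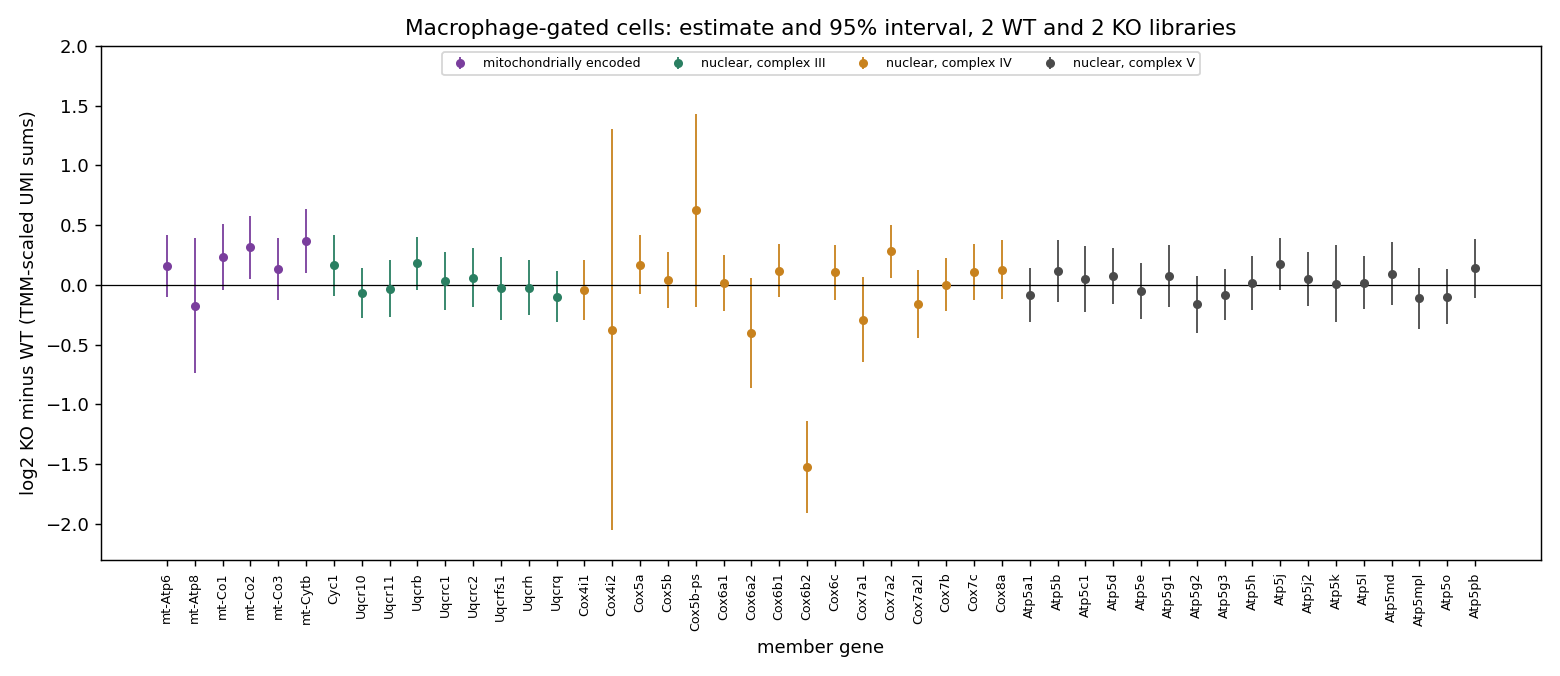
Log2 change of KO over WT in macrophage-gated cells for the members tested, with 95% intervals from edgeR, ordered by complex and by the genome that encodes them. Cox6b2 (-1.52) is the only member past the threshold, and the 37 nuclear members with at least 50 CPM in every library lie between -0.16 and 0.28.

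The nuclear members with at least 50 CPM in every macrophage library, 37 in number, had log2 changes from -0.16 to 0.28, and their 95% intervals ran from -0.45 to 0.50. In complex III, the core protein genes Uqcrc1 (100, 109, 93.8 and 103 CPM) and Uqcrc2 (83.9, 93.4, 81.7 and 88.4) overlapped between genotypes. Uqcrfs1, the Rieske iron-sulphur protein, stood at 150, 167, 135 and 152 CPM, and Cyc1, cytochrome c1, at 95, 108, 101 and 108. All 9 nuclear members of complex III had intervals within 0.5 of 0 on the log2 scale.

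In complex IV, Cox4i1 stood at 1118 and 1197 CPM in WT and 1018 and 1044 in KO, and its log2 change was -0.04 after TMM scaling. The ubiquitous versions Cox6a1 (0.02) and Cox8a (0.13) and the supercomplex factor Cox7a2l (-0.16) did not pass either. Cox7a2 was 368 and 376 CPM in WT and 420 and 409 in KO. It had a log2 change of 0.28 with an edgeR adjusted p of 0.113, and passed in 1 of 17 other settings, DESeq2 (0.29, adjusted p = 0.0389). Cox4i2, the version known from lung, was high in WT 1 alone, at 22 against 7.84, 10.7 and 10.1 CPM. Without WT 2 this one library made it pass (-0.92, edgeR adjusted p = 0.002). Wherever 1 library is left out, the lone library of its genotype is assumed to vary like the other genotype's, so such calls have no spread of their own on that side. With all libraries the Cox4i2 change was -0.38 ± 0.55 (SE). The muscle versions Cox7a1 (14.7, 10.5, 9.96 and 8.88 CPM) and Cox6a2 (2.21, 2.39, 1.54 and 1.67 CPM) lay lower in both KO libraries but did not pass, with log2 changes of -0.29 and -0.40.

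In complex V, the 17 nuclear members tested had intervals within 0.5 of 0 without exception. Atp5a1 and Atp5b, the catalytic core of the F1 head, had log2 changes of -0.08 and 0.12. The 3 genes of the proton-carrying c ring, Atp5g1, Atp5g2 and Atp5g3, encode the same mature protein. Atp5g2 was 662 and 692 CPM in WT and 542 and 569 in KO, and the log2 changes of the 3 were 0.07, -0.16 and -0.08. Read in plain CPM, both KO libraries lay below both WT libraries for 18 of the 48 members and above for 7. Of all genes tested 48% lay below and 15.9% above in the same way, so the members' share below is under that of all genes.

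None of the mitochondrially encoded members passed in edgeR, and 3 of the 6, mt-Cytb, mt-Co2 and mt-Atp6, were higher in both KO libraries. Of all genes tested in these cells, 15.9% were higher in both KO libraries in CPM. mt-Cytb, cytochrome b, was 1876 and 2035 CPM in WT and 2289 and 2350 in KO, a log2 change of 0.37 ± 0.11 (SE; edgeR adjusted p = 0.088). mt-Co2, which takes the electron from cytochrome c, was 4498 and 4503 CPM in WT and 5223 and 5047 in KO (0.31, adjusted p = 0.125). The 2 genotypes did not overlap for either gene.
mt-Co1, the catalytic subunit, gave 6608, 5724, 6569 and 6693 CPM and overlapped, as did mt-Co3 at 5502, 5237, 5501 and 5288 CPM. mt-Atp6, part of the proton channel, was 4222, 4226, 4348 and 4312 CPM, a log2 change of 0.16. mt-Atp8 was 50.4 CPM in WT 1 against 30.0, 33.4 and 31.7, and only without WT 2 did it pass (-0.47, edgeR adjusted p = 0.023).
The median log2 change was 0.19 over these 6 members, 0.02 over the 42 nuclear members tested and -0.01 over all genes. DESeq2 called mt-Cytb (0.38, adjusted p = 0.00947) and mt-Co2 (0.32, adjusted p = 0.0115), and no other of the 17 settings called either. Macrophage-gated cells of KO also held more T-cell RNA: the 5 T-cell markers summed to 0.961 to 2.78 CPM in WT and 10.8 to 13.7 in KO, all 5 were detected in every library and higher in both KO libraries, and their part in these values was not tested.

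Summed over members, the mitochondrially encoded genes took 2.28%, 2.18%, 2.40% and 2.37% of macrophage UMIs and the nuclear members 1.56%, 1.55%, 1.47% and 1.45%. The KO libraries were higher in the first share and lower in the other. By complex, the nuclear share was 0.228%, 0.226%, 0.210% and 0.207% for complex III. It was 0.637%, 0.640%, 0.617% and 0.611% for complex IV and 0.692%, 0.688%, 0.641% and 0.635% for complex V. The ribosomal protein genes, a list apart from the members, took 19.8% in both WT libraries and 15% and 15.9% in KO. Shares of a fixed total move against each other, and which moved in cells cannot be told apart.

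The ratio of mitochondrially encoded to nuclear members does not depend on that total. Its log2 in macrophage-gated cells was 0.55 and 0.49 in WT and 0.71 in both KO libraries. The KO libraries were higher by 0.19, and an exact permutation test gave p = 0.33, the smallest that 2 against 2 libraries allow. The difference was 0.17 with cells over 10% mitochondrial UMIs left out and 0.20 with no limit on them.
In CD4 T-gated cells the ratio was 0.09 and 0.04 in WT and 0.31 and 0.48 in KO, a difference of 0.33 (exact permutation p = 0.33). That difference was 0.22 with the limit of 10%. In CD8 T-gated cells it was 0.52, 0.38, 0.44 and 0.56, a difference of 0.05 with overlap. With the limit of 10% the CD8 T values became 0.26 and 0.26 in WT and 0.35 and 0.41 in KO, which did not overlap, a difference of 0.12. The WT 1 value fell from 0.52 to 0.26 as its cells went from 30 to 28, so this gap rests on very few cells. The limit also acts on mitochondrial UMIs, which the ratio itself counts. In monocyte-gated cells the ratio was 0.27, 0.20, 0.27 and 0.35, and both KO libraries lay above both WT libraries, by 0.08 on average. The cDC-gated values were 0.16, 0.09, 0.15 and 0.25 and overlapped. Neutrophil-gated cells scattered most, from -1.35 in KO 2 to 0.42 in KO 1, with -0.71 and -0.34 in WT. Their difference of 0.07 became -0.22 both with the limit of 10% and with no limit, so no direction is read from it. B-gated cells, 6 to 44 a library, ran the other way from macrophages, with 1.29 and 1.2 in WT and 1.04 and 1.02 in KO, lower in KO by 0.22.

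**Figure D2:**
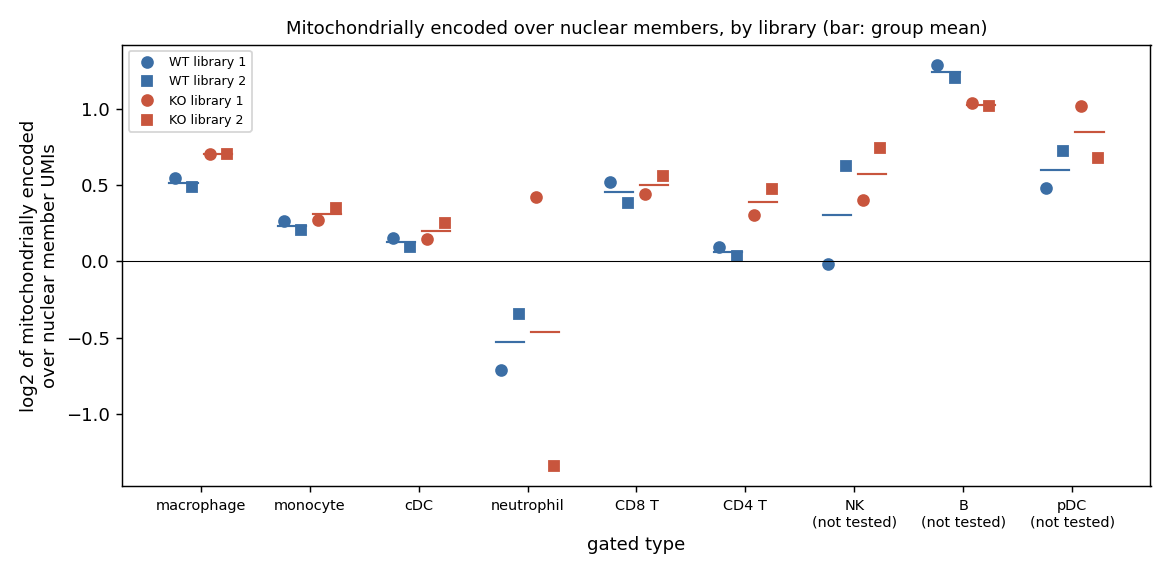
Log2 ratio of summed UMIs of the 6 mitochondrially encoded members to those of the 46 nuclear members, by gated type, with 1 point per library. The KO points lie above the WT points in macrophages (0.71 against 0.49 to 0.55), CD4 T cells (0.31 to 0.48 against 0.04 to 0.09) and monocytes, and below them in B-gated cells (1.02 to 1.04 against 1.2 to 1.29), while neutrophil-gated points spread from -1.35 to 0.42 within KO alone.

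Within each library the ratio was lower than in macrophage-gated cells in monocyte-, cDC-, CD4 T-, CD8 T- and neutrophil-gated cells, in 4 of 4 libraries each. The differences ran from -0.43 to -0.28 for monocytes, from -0.56 to -0.39 for cDCs and from -0.45 to -0.23 for CD4 T cells. They were small for CD8 T cells, at -0.26 to -0.03. B-gated cells lay above macrophages in 4 of 4 libraries, by 0.31 to 0.74. NK- and pDC-gated cells lay on both sides.

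The same genotype comparison in the other gated types called no member. In monocyte-gated cells 0 of 46 members passed, against 11.8% of all genes, and edgeR gave 1 higher and 2 lower below an unadjusted p of 0.05. The lowest adjusted p was that of Atp5g2, at 549 and 540 CPM in WT and 401 and 427 in KO (-0.33, adjusted p = 0.069). It passed with total UMIs (-0.40, adjusted p = 0.025). It is also the c-ring gene with the most negative change in macrophages. Cox7a2 stood at 383, 380, 462 and 434 CPM (0.30). mt-Atp8 was 41.6, 25.7, 24.8 and 20.1 CPM and passed only without WT 2 (-0.78, adjusted p = 0.018), and Cox7a2l passed only without WT 1 (-0.43, adjusted p = 0.029). Intervals lay within 0.5 of 0 for 38 of the 46. Cox6b2, at 9.28, 10.0, 5.56 and 8.94 CPM, had a change of -0.35 with an interval of -1.04 to 0.33. Monocyte-gated cells also differed in other markers: the cycling markers summed to 287 to 425 CPM in WT and 55.2 to 55.9 in KO, with 5 of 5 lower in both KO libraries. The 5 T-cell markers summed to 1.28 to 2.86 CPM in WT and 19.6 to 24.3 in KO, with 5 of 5 higher in both KO libraries and 2 detected in every library. The part of either in the monocyte values was not tested. For Cox6b2, the difference between its monocyte and macrophage changes was 1.18 ± 0.40 (SE; interaction in edgeR, adjusted p = 0.095) and did not pass.

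In cDC-gated cells 0 of 44 members passed, against 2.38% of all genes, and edgeR gave 6 higher and 1 lower below an unadjusted p of 0.05. Cox7a2 was 282 CPM in both WT libraries and 405 and 362 in KO, a log2 change of 0.48 (edgeR adjusted p = 0.078). Cox7b, a small subunit of complex IV, was 330, 337, 455 and 426 CPM (0.44, adjusted p = 0.101). Without KO 2, Cox7a2 passed (0.59, edgeR adjusted p = 0.047). mt-Cytb was 1303, 1393, 1607 and 1764 CPM (0.35, adjusted p = 0.187).
The cDC-gated cells differed between genotypes in other markers: the cycling markers summed to 551 to 554 CPM in WT and 194 to 278 in KO, with 5 of 5 lower in both KO libraries. Macrophage markers summed to 531 to 602 CPM in WT and 747 to 1069 in KO. All 8 were detected in every library, 4 were higher and 2 lower in both KO libraries. The part of either in these values was not tested.

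In CD4 T-gated cells 0 of 43 members passed, against 0.493% of all genes, and edgeR gave 3 higher and 0 lower below an unadjusted p of 0.05. These 3 were mitochondrially encoded. mt-Cytb was 1724 and 1964 CPM in WT and 2303 and 2630 in KO (0.42, edgeR adjusted p = 0.274), and it passed only without WT 2 (0.54, adjusted p = 0.019). mt-Co2 was 3262 and 3376 CPM in WT and 4124 and 4382 in KO (0.36), and mt-Atp6 was 3418 and 3559 in WT and 4041 and 4458 in KO (0.29). All 3 were higher in both KO libraries, which their low p-values make likely. Without that choice, 5 of the 6 mitochondrially encoded members and 6 of all 43 members tested were. The share over all genes tested there was 16.8%.
Macrophage markers in the same cells summed to 520 to 839 CPM in WT and 1174 to 2266 in KO. All 8 were detected in every library and 6 were higher in both KO libraries. Their part in the mitochondrially encoded values was not tested.

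In CD8 T-gated cells 0 of 43 members passed, against 0.841% of all genes, and none was under an unadjusted p of 0.05 in either direction in edgeR. mt-Co1 was 6022, 5180, 5680 and 6249 CPM there and mt-Cytb 2674, 2370, 2104 and 2348, with medians of -0.00 over the mitochondrially encoded and -0.06 over all members. WT 1 held only 30 such cells. In neutrophil-gated cells 0 of 38 members passed, against 0.439% of all genes, and again none was under an unadjusted p of 0.05 in edgeR. No neutrophil member had an interval within 0.5 of 0, so changes of that size were not detectable at this depth of 65186 to 269692 UMIs a library.

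The interaction test asked whether the genotype change of a member differed between a type and macrophages. No member passed in any of the 5 types in edgeR, where 4.63% of all genes passed for monocytes, 1.92% for cDCs, 0.0713% for neutrophils, 2.22% for CD8 T cells and 2.12% for CD4 T cells. Below an unadjusted p of 0.05 there were 1 higher and 4 lower for monocytes, 2 higher for cDCs and 1 each way for CD8 T cells. The lowest adjusted p, 0.0707, belonged to mt-Co1 in monocytes, whose change was lower there by 0.20. For mt-Cytb the CD4 T and macrophage changes differed by 0.07, with an interval of -0.29 to 0.43.

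More members differed between types than between genotypes. Each type was set against macrophages of the same libraries with the library as a block, and the members called are given with the share of all genes called. A lower share of UMIs and less of that RNA per cell cannot be told apart in such sums.

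Neutrophils stood lowest. Of 47 members tested in neutrophil-gated cells 31 were lower than in macrophages and 0 higher, where 28.8% of all genes passed, 12.5% higher and 16.3% lower. All 31 were also called with total UMIs. mt-Co1 was 1520, 1745, 2929 and 1012 CPM in neutrophils against 6608, 5724, 6569 and 6693 in macrophages, lower by 1.83 on the log2 scale (edgeR adjusted p = 1.9e-11). mt-Co2, mt-Cytb, mt-Co3, mt-Atp6 and mt-Atp8 were lower by 1.80, 1.74, 1.70, 1.68 and 1.61, the last from 7 UMIs. Among nuclear members, the c-ring genes Atp5g3 (44.7, 100, 77.9 and 61.4 CPM against 220 to 270) and Atp5g1 fell furthest, by 1.66 and 1.47.
The median was -1.72 over the mitochondrially encoded members, -0.97 over all members tested and -0.54 over all genes. KO 1 was the highest neutrophil library for mt-Co1, mt-Co2, mt-Co3, mt-Cytb and mt-Atp6. It also carried the most macrophage markers, which summed to 4754 CPM in KO 1 and 1453 to 2823 in the others, with 8 of 8 detected in every library. Their part in the KO 1 values was not tested. Of 43 members with at least 10 CPM in all 6 tested types, 42 had their lowest mean level in neutrophils. This count was not made over all genes, whose median was lower in neutrophils too, so it is not read as particular to the members.

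Monocytes and macrophages, which are close relatives, differed by small amounts. Of 48 members, 11 were higher and 10 lower in monocyte-gated cells (37.8% of all genes passed, 20.4% higher and 17.4% lower). All 6 mitochondrially encoded members were among the 10. mt-Co1 was 4927, 4252, 4369 and 4463 CPM in monocytes, lower by 0.46 (edgeR adjusted p = 2.7e-05), and mt-Atp8 was lower by 0.35. Cox7a1 was 8.32, 4.29, 5.33 and 4.47 CPM against 8.88 to 14.7 in macrophages, lower by 0.92, and Atp5g2 was lower by 0.32.
The higher group was nuclear. Cox6b2 led it by 1.46, with Uqcrfs1 (0.28), Atp5md (0.27) and Uqcrc1 (0.26) following. The value of Cox6b2 averages over genotypes: in CPM its gap was wider in both KO libraries than in both WT libraries, though its interaction did not pass. Without KO 1 only 2 members were higher and 6 lower, without WT 2 there were 5 higher and without WT 1 7, and the stricter gate gave 5.

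In cDC-gated cells 4 of 47 members were higher and 13 lower than in macrophages (44.4% of all genes passed, 20.8% higher and 23.5% lower). All 6 mitochondrially encoded members were among the lower, with mt-Cytb at 1303, 1393, 1607 and 1764 CPM against 1876 to 2350 (-0.55, edgeR adjusted p = 1.6e-06). mt-Co1 was lower by 0.56 and mt-Atp8 by 0.95. The higher members were nuclear: Cox6b2 (2.06), Uqcrc2 (0.45), Atp5h of the ATP synthase stalk (0.29) and Cox7a2l (0.24). For Cox6b2 the gap in CPM was again wider in both KO libraries than in both WT libraries, and its interaction did not pass. Uqcrc2 stood at 127, 122, 118 and 121 CPM against 81.7 to 93.4 in macrophages, with no overlap. Without WT 2 only 2 members were higher.

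In T cells the scaling decided many calls. With TMM, CD8 T-gated cells had 3 of 47 members higher and 10 lower (60.6% of all genes passed, 27.4% higher and 33.2% lower). With total UMIs 7 members were higher and 4 lower, as were 4028 and 3220 of all 11598 genes. CD4 T-gated cells had 1 higher and 30 lower with TMM (54.7%, with 24.2% higher and 30.4% lower). With total UMIs 12 members were higher and 10 lower, as were 4588 and 2430 of all 11633 genes. The median of all genes shifted by 0.19 and 0.38 between the scalings. Without KO 1 or KO 2 only 1 CD8 T member was higher, and without KO 2 only 4 were lower. Only 7 of the 13 CD8 T calls and 11 of the 31 CD4 T calls were the same under both.
Uqcrh, the hinge protein of complex III, was higher in both T-cell types under both scalings. It stood at 739, 795, 899 and 833 CPM in CD8 T cells and 883, 825, 846 and 784 in CD4 T cells, against 520, 518, 489 and 448 in macrophages. The CD8 T difference was 0.53 (edgeR adjusted p = 0.00069) and 0.73 with total UMIs, and the CD4 T difference 0.38 and 0.76. Atp5d and Atp5h were also higher in CD8 T cells under both.
Uqcrb and Uqcr11, small subunits of complex III, were lower in CD8 T cells under both scalings, by 0.67 and 0.73 with TMM. Uqcrb was lower in CD4 T cells too, by 0.67 with TMM and 0.29 with total UMIs. mt-Co1 was 4999, 4113, 5002 and 5393 CPM in CD4 T cells, lower than in macrophages by 0.77 with TMM and 0.40 with total UMIs, both past the threshold. In CD8 T cells its difference was -0.35 with TMM and -0.15 with total UMIs, where it no longer passed. Atp5b, Cyc1 and Uqcrc1, called lower in CD4 T cells with TMM, had log2 differences of 0.12, 0.090 and 0.10 with total UMIs.

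**Figure D3:**
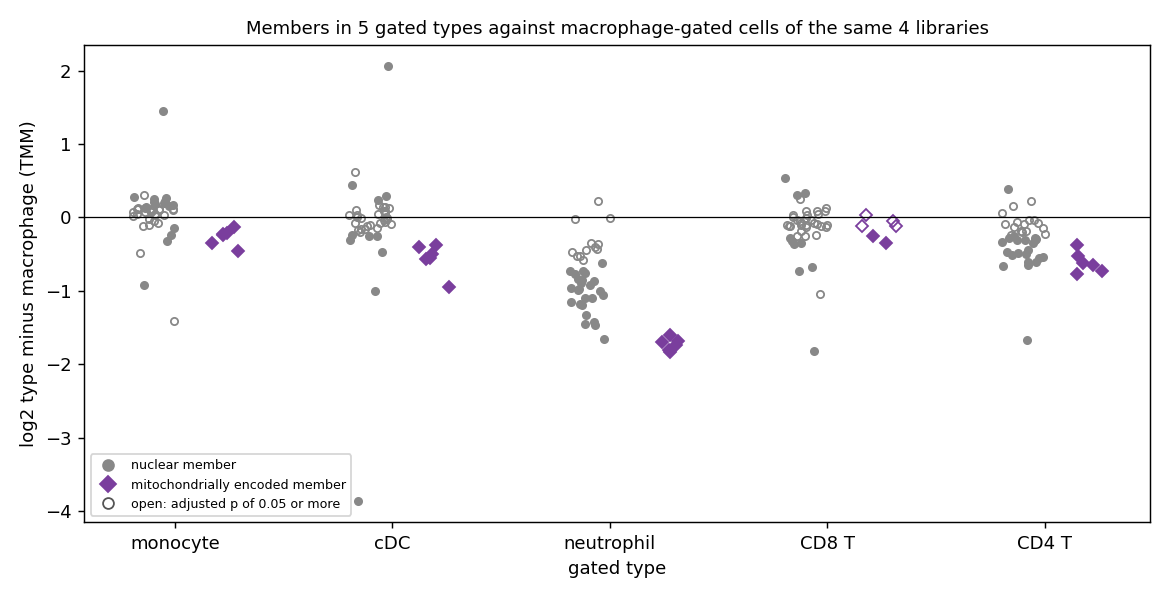
Log2 difference of each gated type from macrophages of the same libraries (edgeR, TMM scaling) for every member with at least 4 UMIs in that type, mitochondrially encoded and nuclear members apart. The mitochondrially encoded members lie below 0 in monocytes, cDCs and neutrophils, with medians of -0.23, -0.52 and -1.72. Their medians were -0.64 in CD4 T and -0.12 in CD8 T cells, and -0.27 and 0.08 there with total UMIs.

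Tissue versions of complex IV subunits differed widely in level between the gated types. Cox6a2, the version known from heart and skeletal muscle, was 1668, 2386, 837 and 1718 CPM in pDC-gated cells against 2.21, 2.39, 1.54 and 1.67 in macrophages. These values come from 227, 87, 53 and 301 UMIs in 23, 7, 16 and 26 cells. The fold of pDCs over macrophages ran from 544 to 1028 over the 4 libraries. At least 1 Cox6a2 UMI was found in 60 of 72 pDC-gated cells (83.3%, exact 95% interval 72.7 to 91.1%, counting error only) and in 2.18% of macrophage-gated cells, although pDCs were shallower, with a mean of 5710 against 13088 UMIs a cell.
Its partner Cox6a1 was found in 80.6% of pDC-gated and 90.3% of macrophage-gated cells. Of the UMIs of this pair, Cox6a2 gave 86.6%, 89.7%, 73.6% and 79.0% in pDCs and 0.441% to 0.683% in macrophages. pDC genotypes were not tested because 1 WT library held only 7 such cells. Cox6a2, at chr7:128205435-128206387 on the reverse strand, overlaps Itgad on the other strand. Itgad gave 4, 2, 0 and 0 UMIs in the pDC-gated cells.

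After pDCs, pooled Cox6a2 was highest in NK-gated cells, at 8.98 CPM from 18 UMIs in 13 of 454 cells. It was 3.84 CPM in cDC-gated cells, from 17 UMIs in 4 of 478 cells, and 1.94 in macrophage-gated cells. Monocyte- and CD8 T-gated cells stood lower, at 0.69 and 0.90 CPM. No Cox6a2 UMI was found in 726 CD4 T-, 329 neutrophil- or 75 B-gated cells, which allows shares of up to 0.413%, 0.912% and 4.00% of cells with a UMI, at mean depths of 4076, 1926 and 2367 UMIs a cell. This limits cells with a UMI, not cells that express the gene. With 0 UMIs in CD4 T cells no fold can be given. A floor of 3 UMIs there would put the pooled macrophage level 1.91-fold higher. The 95% counting interval of the fold, taken from the 0 UMIs and not from the floor, began at 1.55. Cox6b2 UMIs were found in 11.5% of cDC-gated cells, 4.90% of monocyte- and 3.79% of macrophage-gated cells, and in 0.55% of CD4 T-gated cells, at mean depths of 9262, 6909, 13088 and 4076 UMIs a cell. The cDC levels were 18.3, 17.3, 15.5 and 7.99 CPM, above the macrophage value of the same library in each of the 4.
Cox4i2 was detected in 9.95% of macrophage- and 3.95% of monocyte-gated cells and in 0.21% of CD8 T-gated cells, and it gave 3 or 4 UMIs in all in each of the cDC-, CD8 T- and CD4 T-gated sums. The pooled level in macrophages was 26.8-fold that in CD8 T cells (95% counting interval 9.15 to 130), 13.4-fold that in cDCs (5.23 to 49.2) and 11.9-fold that in CD4 T cells (4.08 to 57.9). Cox7a1 was 10.7-fold higher in macrophages than in CD4 T cells (3.65 to 51.9, from 3 UMIs). The testis versions Cox7b2 and Cox8c gave 0 UMIs in every gated type, and the muscle version Cox8b gave 1.

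**Figure D4:**
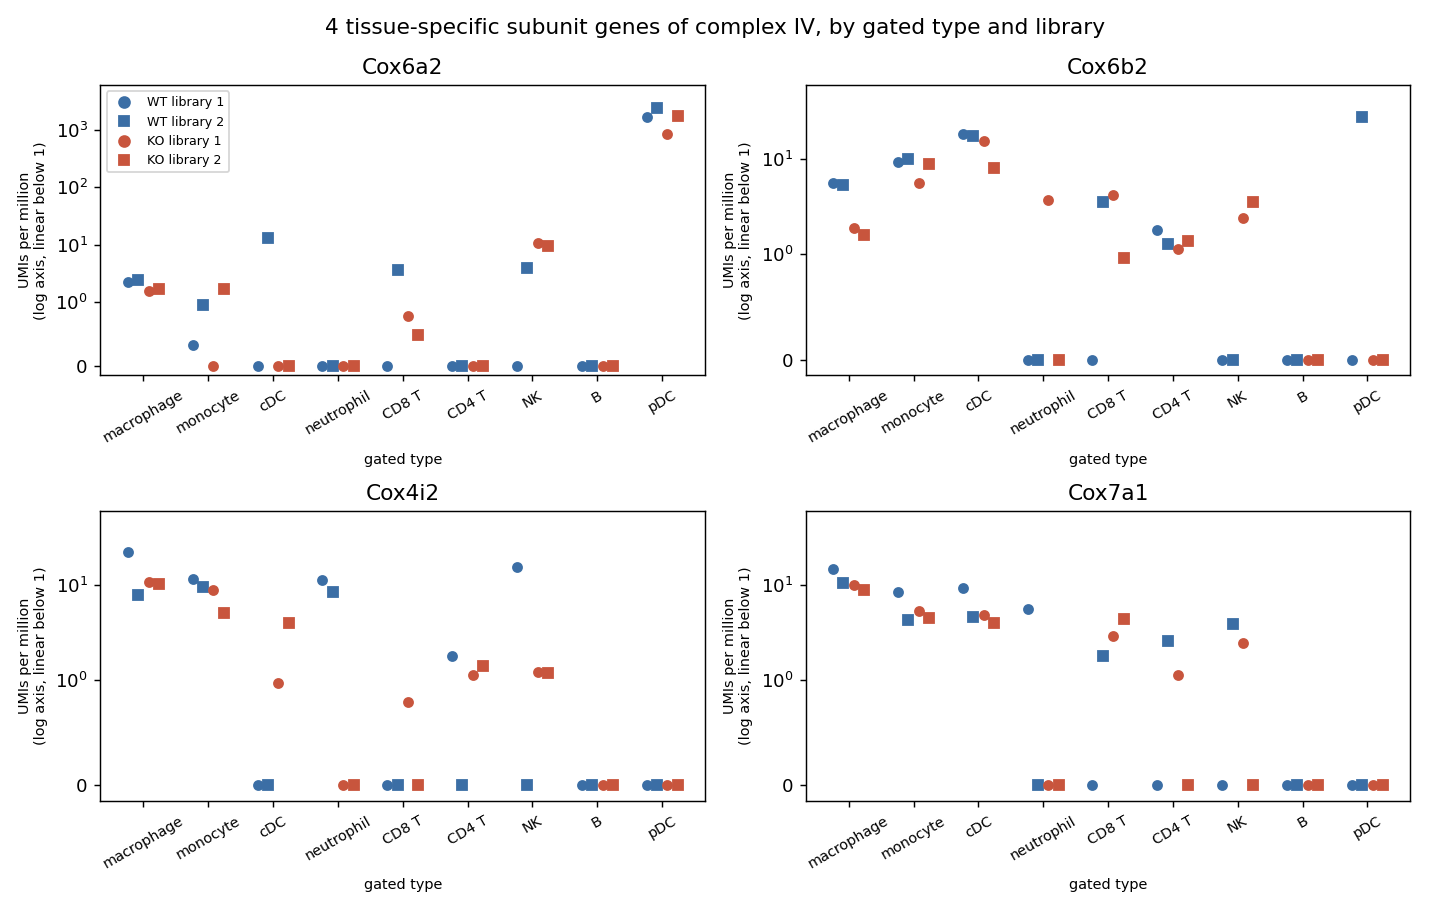
CPM of tissue versions of complex IV subunits by gated type, on a log axis, with 1 point per library. Cox6a2 reaches 837 to 2386 CPM in pDC-gated cells and stays at 1.54 to 2.39 CPM in macrophage-gated cells.

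Because the cycling markers were lower in KO, the members were also compared between macrophages with at least 3 of the 5 cycling markers (716, 917, 642 and 544 cells) and those with none. This comparison was added after the data had been seen, and it uses the library as a block. Of 47 members 17 were higher in cycling cells and 4 lower, where 53% of all genes passed, 26.7% higher and 26.3% lower. With total UMIs 33 were higher and 3 lower, as were 3747 and 1907 of all 11298 genes. The median of all genes was then 0.07 in place of -0.02. Cycling cells were also deeper, with means of 17658 to 23944 UMIs against 9434 to 13060, and the part of depth or of doublets was not tested.

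The higher members came from all 3 complexes. Atp5o, the stalk subunit that joins F1 to the membrane part, was 319, 306, 263 and 273 CPM in cycling and 212, 215, 184 and 200 in non-cycling cells, higher by 0.43 (edgeR adjusted p = 1.8e-05). Uqcr10 was 345, 316, 293 and 289 against 239, 226, 217 and 212 (0.38), and Cyc1 124, 138, 123 and 131 against 81.2, 97.2, 97.2 and 103 (0.36). Each was higher in cycling cells of every library.
Cox6b2 was 7.99 and 8.17 CPM in cycling against 4.26 and 4.41 in non-cycling cells of WT. In KO it was 2.01 and 1.69 against 1.81 and 1.73, so its difference of 0.53 rests on the WT libraries. Both WT values stayed above both KO values in either kind of cell.
The 4 lower members were Cox7a2l (-0.26), Uqcrh (-0.22), mt-Co1 (-0.18) and Atp5md (-0.14). Lower members numbered 8 without KO 1 and 2 without any other library. The log2 ratio of mitochondrially encoded to nuclear members was 0.48, 0.38, 0.59 and 0.63 in cycling and 0.57, 0.52, 0.73 and 0.71 in non-cycling cells, and in either kind it was higher in both KO libraries.

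**Figure D5:**
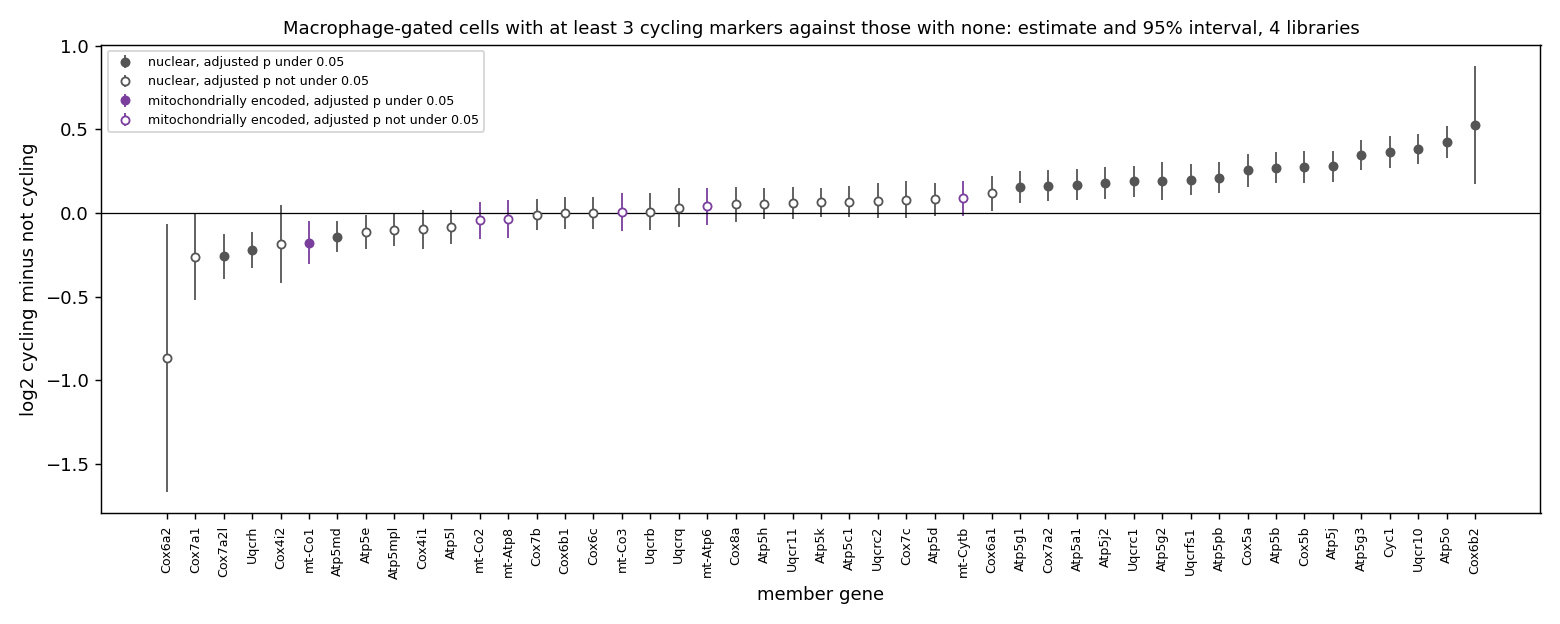
Log2 difference between cycling (at least 3 of 5 cycling markers) and non-cycling (none) macrophage-gated cells for each member tested. Points are edgeR estimates over the libraries with 95% intervals, ordered by size, and filled points have an adjusted p under 0.05. Cox6b2 (0.53), Atp5o (0.43), Uqcr10 (0.38) and Cyc1 (0.36) lie above 0, and Cox7a2l (-0.26) and Uqcrh (-0.22) below.

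The rest of the respiratory chain and its supply lines were read from lists set beside the members. In macrophages, complex I had 2 of 54 genes lower in KO and none higher, with a median of 0.09 against -0.01 over all genes. That share is near the 3.78% of all genes called lower. These were mt-Nd3, at 294, 195, 119 and 92.4 CPM (-1.08, edgeR adjusted p = 0.033), and Ndufa4, at 115, 90.6, 62.4 and 65.9 (-0.55, adjusted p = 0.026). Ndufa4, named for complex I, is now placed in complex IV by structural work, and by its symbol it is not among the members. No gene passed among the 4 of complex II, the 6, 21 and 5 assembly factors of complexes III, IV and V, the 14 genes of mitochondrial DNA expression, the 6 biogenesis regulators or the 12 of the mitochondrial stress response. Cytochrome c (Cycs), the carrier between complexes III and IV, had a change of 0.31 and did not pass.
Of 12 dissociation stress genes, Fosb (0.61) and Atf3 (0.47) were higher in KO macrophages, where 5.66% of all genes were. In CD8 T-gated cells 3 of 12 were higher, Atf3 (2.03), Jund (1.00) and Junb (0.93), where 61 of 8202 genes were, and in cDC-gated cells Jun was lower (-0.75), as were 67 of 7849 genes. In cDC-gated cells Cycs was 236 and 239 CPM in WT and 384 and 336 in KO (0.63, edgeR adjusted p = 0.021), and mt-Nd3 was lower by 0.83. In monocyte-gated cells the assembly factor Coa5 of complex IV was higher by 0.61, Tmem242, an assembly factor of complex V, was lower by 0.80, and Ndufb10 was lower by 0.38. Of ribosomal protein genes, 20 of 90 were lower in monocytes, where 463 of 9391 genes were, and 2 of 93 in macrophages, where 3.78% of all genes were. The monocyte-gated cells also differed in cycling and T-cell markers, given with their members above, and the part of these was not tested.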

How the data were processed

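The authors deposited 4 matrices of raw UMI counts, with genes by barcodes, from Cell Ranger on mm10 (5.0.1 per the submitters' processing notes, 5.0.0 per the file headers). Seurat 3.15 is named in those notes without a role. Genomic DNA is the molecule in the labels, while their protocol describes cDNA.

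From these, barcodes with at least 200 genes, at most 20% mitochondrial UMIs and a Ptprc (CD45) UMI were kept and gated by markers: for example at least 6 of 8 for macrophages, 3 of 6 for monocytes, 2 of 7 for cDCs, 4 of 6 for neutrophils, 3 of 5 for T cells and pDCs, with limits on markers of other types. This left 3055, 2684, 6816 and 3807 cells of WT 1, WT 2, KO 1 and KO 2 in no gate. No doublet caller was run and free RNA was not removed.

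UMIs were summed per library and type, since cells are not replicates, and edgeR 4.0.16 (R 4.3.3) gave the tests (filterByExpr, TMM, robust quasi-likelihood test, Benjamini-Hochberg adjustment over all genes, threshold 0.05, two-sided). DESeq2 1.42.0 was an alternative. On simulated counts for macrophages edgeR recovered 90.9% of genes changed by a log2 of 1, and for CD8 T cells 26.4%. False calls made up 7.77% and 2.80% of the calls. The counts were drawn a single time with the same variability for all genes, and changes under a log2 of 1 were not simulated. Macrophage sums held 55140350 to 77977603 UMIs and CD8 T sums 169056 to 3818125. Ratios were compared with exact permutation tests over libraries. Named were the mitochondrially encoded members, complex IV and c-ring pairs, and the called members with the largest changes; others were named after their values were seen. Members and lists were chosen with earlier results of these data known. The gene targeted in the KO mice is not reported here.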

Additional observations from a re-analysis of the deposited data

How the results depend on the processing

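In macrophages the members called higher in KO were 3 with DESeq2 in place of 0, and those called lower were 1 to 3 with single libraries left out, the 3 without WT 2 adding mt-Atp8 and Cox4i2. In monocytes the members called lower were 1 with total UMIs (Atp5g2) and 0 to 1 with libraries left out (Cox7a2l without WT 1, mt-Atp8 without WT 2). In cDCs the members called higher were 0 to 1 with libraries left out and 2 with the replicate number as a block. In CD4 T cells they were 0 to 1. The interaction for cDCs gave 0 to 1 lower, the 1 without WT 1.

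Against macrophages, leaving out libraries gave 2 to 9 higher and 6 to 11 lower in monocytes, 2 to 4 higher in cDCs, and 1 to 3 higher and 4 to 9 lower in CD8 T cells. Total UMIs gave 7 higher in monocytes, as were 1985 of all 11513 genes. They gave 7 higher and 4 lower in CD8 T cells, and 12 higher and 10 lower in CD4 T cells. In CD4 T cells Atp5b (0.12), Cyc1 (0.090) and Uqcrc1 (0.10) turned positive. The stricter gate gave 5 higher in monocytes, and for the type comparison it left enough cells only there and in CD4 T cells, with 1 higher and 21 lower in the latter. In cycling macrophages total UMIs gave 33 higher, and leaving out libraries gave 2 to 8 lower. The CD4 T ratio difference was 0.22 with the 10% limit. The neutrophil ratio difference, 0.07, was -0.22 with the 10% limit and with no limit and ran from -0.82 to 0.95 with libraries left out, and the CD8 T one, 0.05, from -0.02 to 0.12. Other counts stayed within 1.5 times and other ratios kept their sign. In a genotype comparison, leaving out 1 library leaves a lone one, assumed to vary like the other genotype's. The cause of the differences was not tested, and NK- and B-gated alternatives were not run.

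Over the genes tested, deviations of same-numbered libraries from their group means had correlations of -0.08 to 0.06. These correlations also carry counting noise, so they cannot tell whether same-numbered libraries share a batch. With the replicate block, genes called over the whole table were 554 in place of 1163 in macrophages, 1333 in place of 1108 in monocytes, 463 in place of 187 in cDCs, 17 in place of 9 in neutrophils, 253 in place of 69 in CD8 T cells and 87 in place of 36 in CD4 T cells.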
